A study of Rattus norvegicus with 9 samples.

Results

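Prefrontal cortex of 9 male Lewis rats was compared along 1 axis, the locomotion value that the labels give each rat. All 9 of the 9 arrays in the series belong to this comparison, 1 array per rat, and no array was chosen by an expression value. The rats are of an inbred strain, received no treatment, form 1 group, and were killed 12 days after their last behavioural test. The tissue was cortex of areas Fr1 and Fr2 without olfactory bulb, and expression was measured on Affymetrix rat arrays as log2 values per probe set, a set of short probes for 1 transcript. The question, after the series title, is whether mRNA levels in this tissue go with behaviour among animals of the same strain.

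Locomotion, a count or distance of spontaneous movement whose unit the labels do not give, is a basic readout of activity and exploration. The frontal areas sampled hold motor and premotor cortex, whose glutamatergic output reaches the striatum and whose tone is set by dopamine, noradrenaline, serotonin and acetylcholine. Neuronal firing switches on the immediate early genes within minutes, so their mRNA follows the recent activity of the animal rather than a test held days before.

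In order of locomotion the rats were rat 3 at 536, rat 6 at 634, rat 7 at 635, rat 5 at 706, rat 2 at 787, rat 9 at 793, rat 4 at 805, rat 8 at 946 and rat 1 at 1102. The mean was 772 with an SD of 173 (n = 9). Rats 1 and 3 lay farthest from the median of locomotion. On a first principal component with 49.6% of the variance, the arrays of rats 8 and 9 scored 35.6 and 30.2 and the other 7 from -12.1 to -1.62. Against locomotion this component gave r = 0.256 (exact p = 0.515, all pairings) and a rho of 0.10 (exact p = 0.810). Without rats 8 and 9 it gave r = -0.450 (exact p = 0.313), and without rats 1 and 3 an r of 0.644. As signs of RNA quality, the difference between the 3′ and the 5′ control probe sets ran from 2.29 to 3.08 log2 units for actin, from 0.454 to 0.826 for GAPDH and from 1.14 to 2.91 for hexokinase. Their r with locomotion was -0.160 (exact permutation p = 0.683), -0.0716 (exact permutation p = 0.858) and -0.243 (exact permutation p = 0.507). Their rho was -0.133, 0.117 and -0.30, and r was -0.391, -0.424 and -0.448 without rats 1 and 3. The array median gave r = -0.168 (exact permutation p = 0.662) and rho = -0.133, and its r was 0.244 without rats 1 and 3, with the sign turned. Every adjusted p over the 5 array measures was 0.810 or higher. As a check of the tissue, all 10 neuronal markers were tested and averaged 11.1 to 11.4 log2 units.

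No gene was related to locomotion at the threshold. With limma, 0 of the 9520 probe sets tested had an adjusted p under 0.05, a background of 0%, and 27 had an unadjusted p under 0.01, which is 0.284% of those tested where 1% would be 95.2. At an unadjusted p under 0.05 there were 187 (1.96%). The median standard error of a slope was 0.065 log2 units per SD of locomotion, which sets the size of relation these 9 arrays could resolve. The genes named from here on had the smallest limma p, 15 on the positive and 15 on the negative side, so their slopes describe the extremes of this table and none passed the adjusted threshold.

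Negative slopes outnumbered positive ones among the smallest p values. Of 6793 genes 4138 (60.9%) had a negative slope, and 93 negative (1.37%) and 37 positive genes (0.545%) had an unadjusted limma p under 0.05. The excess was smaller after quantile normalization of the arrays, with 78 negative and 63 positive genes at that threshold. In the 7 rats without rats 8 and 9 it was 178 negative against 121 positive, and 51.8% of all slopes were negative. The excess turned in both fits that joined a term for rats 8 and 9 with rats left out. Without rat 1 that fit gave 249 positive and 90 negative genes at that threshold, and without rats 1 and 3 it gave 132 and 68, with 46.3% and 45.3% of all slopes negative.

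Promoters of 3 genes are shown because their products place them in receptor trafficking, the clock and activity feedback, the themes of the members described next. Each runs from 250 bases before to 50 after the RefSeq start site, 5′ to 3′ on the gene's strand (RefSeq, GRCr8). Arrdc3 lies at chr2:12872952-12873251 on the plus strand with a CCAAT match in capitals, Bhlhe41 at chr4:180569306-180569605 on the minus strand with an E-box (CACGTG) in capitals, and Dusp1 at chr10:17184603-17184902 on the plus strand with a cAMP response element (TGACGTCA) in capitals.
Arrdc3: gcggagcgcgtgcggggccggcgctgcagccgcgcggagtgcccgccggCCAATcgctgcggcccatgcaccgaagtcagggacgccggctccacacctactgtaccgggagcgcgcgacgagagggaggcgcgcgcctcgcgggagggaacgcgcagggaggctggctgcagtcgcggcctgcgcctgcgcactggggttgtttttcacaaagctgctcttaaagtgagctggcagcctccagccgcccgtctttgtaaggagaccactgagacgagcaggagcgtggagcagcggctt
Bhlhe41: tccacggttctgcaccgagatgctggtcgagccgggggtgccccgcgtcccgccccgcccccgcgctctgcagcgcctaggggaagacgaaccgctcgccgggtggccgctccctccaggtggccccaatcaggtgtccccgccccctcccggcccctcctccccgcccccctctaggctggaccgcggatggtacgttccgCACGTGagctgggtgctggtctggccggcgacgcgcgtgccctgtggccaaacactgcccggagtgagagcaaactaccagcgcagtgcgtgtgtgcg
Dusp1: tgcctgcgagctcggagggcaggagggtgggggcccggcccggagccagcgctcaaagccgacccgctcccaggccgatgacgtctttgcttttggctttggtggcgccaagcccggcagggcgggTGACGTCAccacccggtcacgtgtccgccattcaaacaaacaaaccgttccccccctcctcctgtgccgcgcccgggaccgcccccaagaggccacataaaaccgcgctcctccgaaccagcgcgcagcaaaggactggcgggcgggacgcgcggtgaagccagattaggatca
Both strands were searched, and 1 motif per promoter is in capitals. Bhlhe41 also holds a CCAAT and Dusp1 a CACGTG, both left in lower case. Of 33469 rat promoters of this length, 37.5% hold a CCAAT, 6.42% a CACGTG and 1.83% a TGACGTCA. Among the named genes, 13 of the 15 with a negative slope had a promoter sequence, of which 9 held a CCAAT, 1 a CACGTG and 0 a TGACGTCA. Of the 14 sequences of genes with a positive slope, 5 held a CCAAT, 3 a CACGTG and 0 a TGACGTCA. Of the 13 immediate early genes described further on, 9 had a sequence, of which 3 held a CCAAT, 1 a CACGTG and 1 a TGACGTCA. Dusp1 itself was the 1 with a CACGTG and the 1 with a TGACGTCA. A match is a description of the letters and not a binding site.

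Arrdc3 had the smallest p of any gene. It encodes an alpha-arrestin, an adaptor that links membrane receptors to ubiquitin ligases of the Nedd4 family and steers them through endosomes. In order of locomotion its log2 values were 5.56 in rat 3, 4.99 in rat 6, 5.17 in rat 7, 5.01 in rat 5, 4.94 in rat 2, 4.64 in rat 9, 5.01 in rat 4, 4.46 in rat 8 and 4.48 in rat 1. The least active rat had the highest value and the 2 most active had the lowest, while rat 9 lay below its neighbours. The slope was -0.31 ± 0.060 log2 units per SD (SE, n = 9), a 1.24-fold change, changing to -0.40 without rat 1, to -0.25 without rat 3 and to -0.27 without rats 8 and 9. Of the other 7 genes tested in the list of arrestins, receptor kinases and ubiquitin ligases, 4 had positive and 3 negative slopes. Of all genes 60.9% were negative. None of the 7 had an unadjusted p under 0.05. Txnip, a relative of Arrdc3, had -0.13 ± 0.13, Grk6, a receptor kinase, -0.039 ± 0.029 and Nedd4, a ubiquitin ligase, 0.20 ± 0.27. Nedd4 was highest in rats 8 and 9, at 11.8 in both, and its slope was -0.059 without them.

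**Figure D1:**
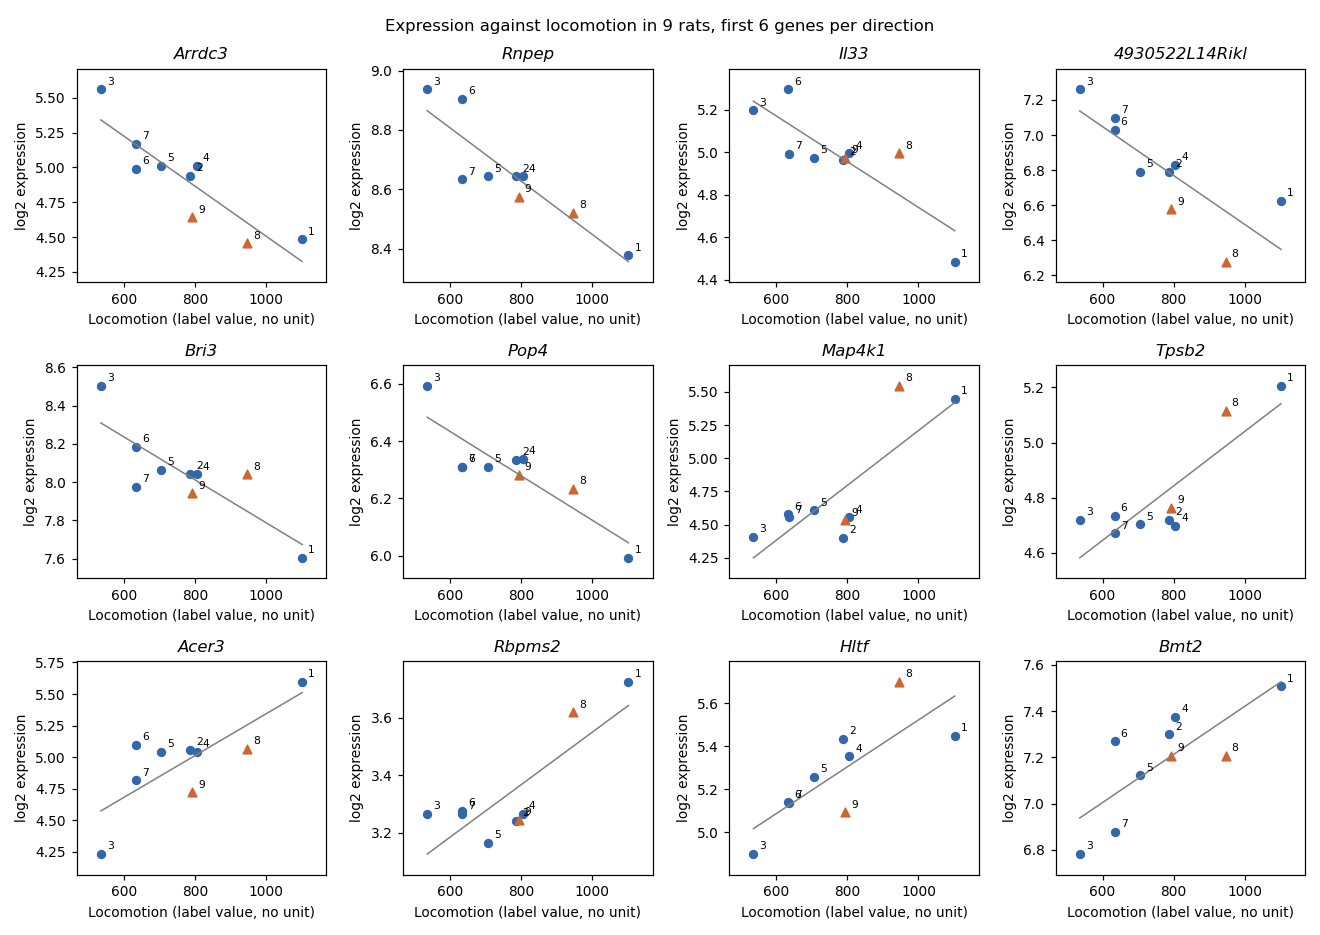
Log2 expression (y axis) against the locomotion value (x axis) for the first 6 genes with a negative and the first 6 with a positive slope, 1 point per rat with its number. Triangles are rats 8 and 9 and the line is the limma slope; Arrdc3 runs from 5.56 in rat 3 to 4.48 in rat 1, while Map4k1, Tpsb2 and Rbpms2 are high in rats 1 and 8 alone.

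Rnpep, aminopeptidase B, which trims basic residues from peptides, had log2 values of 8.94, 8.90, 8.63, 8.64, 8.64, 8.58, 8.64, 8.52 and 8.38 in rats 3, 6, 7, 5, 2, 9, 4, 8 and 1, the order of locomotion used from here on. The 2 rats with the lowest locomotion, 3 and 6, had the highest levels, and rats 8 and 1 the lowest. Its slope stayed between -0.17 and -0.14 when each rat was left out. The uncharacterised gene 4930522L14Rikl had 7.26, 7.03, 7.10, 6.79, 6.79, 6.58, 6.83, 6.28 and 6.63 in that order, with rats 3, 6 and 7 above all others. Its slope was -0.24 ± 0.063, -0.39 without rat 1 and -0.18 without rats 8 and 9.

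Il33, an alarmin cytokine stored in nuclei of glia and barrier cells, separated 1 rat from the rest. In order of locomotion it had 5.20, 5.30, 4.99, 4.97, 4.97, 4.97, 5.00, 5.00 and 4.49. Rat 1 was lowest, and the other 8 rats lay between 4.97 and 5.30. The slope of -0.19 ± 0.048 became -0.11 when rat 1 was left out. A second tested Il33 probe set had -0.030 ± 0.034. Irak1, a kinase of the same receptor pathway, had -0.067 and Tollip -0.031. All 3 of the 3 genes tested in the interleukin list were thus negative, where 60.9% of all genes were. Il33, named for its small p, was the 1 with an unadjusted p under 0.05. Among all genes 1.37% were negative with such a p. The other 10 genes of that list on the array fell below the mean filter.

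Bri3, a membrane protein of lysosomes, had 8.51, 8.18, 7.98, 8.07, 8.04, 7.94, 8.04, 8.04 and 7.60 in that order. Pop4, a protein subunit of the ribonuclease P complex that trims tRNA precursors, had 6.59, 6.31, 6.31, 6.31, 6.34, 6.28, 6.34, 6.23 and 5.99. Both genes had their extreme values in the 2 rats at the ends of the locomotion range and little order in the middle. Without those rats the slope of Bri3 went from -0.19 to -0.034 and that of Pop4 from -0.13 to -0.033. In the ribonuclease P list 5 of 6 genes had negative slopes, where 60.9% of all genes did. Pop4, named for its small p, was the 1 with an unadjusted p under 0.05. Among all genes 1.37% were negative with such a p.

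Bhlhe41, a basic helix-loop-helix repressor that binds E-boxes in the clock, had values from 8.08 in rat 1 through 8.51 to 8.65 in rat 2. Rats 1 and 8, the 2 most active, were the lowest, and the other 7 lay between 8.34 and 8.65 without order. The slope of -0.17 ± 0.046 stayed between -0.18 and -0.15 when each rat was left out and was -0.17 without rats 1 and 3. Of 14 clock genes tested 11 had negative slopes, where 60.9% of all genes did. The list median was -0.032 beside -0.013 over all genes. Bhlhe41, named for its small p, was the 1 with an unadjusted p under 0.05. Among all genes 1.37% were negative with such a p. Nr1d2, a nuclear receptor of the stabilising loop, had -0.092 ± 0.064, Per2, a core repressor, 0.12 ± 0.099 and Hlf, an output factor, -0.056 ± 0.047. Bmal1, the core activator, had -0.0051, with values from 6.22 to 6.45 over the 9 rats.

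Scrib, a scaffold of cell polarity and synapses, had a slope of -0.17 ± 0.046, and Polg, the polymerase that copies mitochondrial DNA, -0.25 ± 0.069. Polg was 4.31 in rat 1 and 4.64 to 5.37 in the others, and its slope was -0.15 without rat 1. Aprt, which salvages adenine into AMP, had -0.18 ± 0.051 and was lowest in rats 8 and 1, at 7.92 and 8.04. Each of these genes was named for its small p, and no other member of its list had an unadjusted p under 0.05. The lists held 9 polarity genes, 4 of mitochondrial DNA maintenance and 10 of purine salvage. Among all genes 1.37% were negative with such a p.

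Further down the negative side, Dmac2l, a mitochondrial protein, had a slope of -0.19 ± 0.059 and Kif1c, a kinesin motor of vesicle transport, -0.19 ± 0.058. Chka, choline kinase, which starts phosphatidylcholine synthesis, had -0.12 ± 0.036, Crebl2, a leucine zipper protein, -0.17 ± 0.053 and Klf3, a zinc finger repressor, -0.23 ± 0.071. Kif1c was 5.92 in rat 3 and 4.96 in rat 1, with the other 7 between 5.30 and 5.36, and its slope was -0.0020 without rats 1 and 3. That of Crebl2 was -0.022 and its second tested probe set had 0.36 ± 0.25. Klf3 and Chka had -0.32 and -0.15 without those rats, with rat 8 the lowest of the rats kept. Klf3 was 4.93 in rat 8 and 5.52 to 5.72 in the rest of these, and Chka 5.84 and 5.95 to 6.17. Leaving out rat 8 alone gave -0.16 and -0.10.

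Map4k1, a kinase of blood cells, led the positive side with 4.41, 4.58, 4.56, 4.61, 4.40, 4.53, 4.56, 5.55 and 5.45 in order of locomotion. Rats 8 and 1 were high, at 5.55 and 5.45, and the other 7 lay between 4.40 and 4.61. Tpsb2, a mast cell tryptase, had 4.72, 4.73, 4.67, 4.70, 4.72, 4.76, 4.70, 5.12 and 5.21, so rats 8 and 1 again lay above the other 7. Rbpms2, an RNA-binding protein near the filter limit, had 3.27, 3.28, 3.27, 3.16, 3.24, 3.25, 3.27, 3.62 and 3.72. In each the 2 most active rats stood clear of the rest, and there was no order within the rest. The slopes were 0.36 ± 0.088, 0.17 ± 0.043 and 0.16 ± 0.045, and those without rats 8 and 9 were 0.29, 0.15 and 0.14.

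Markers of the cells that Map4k1 and Tpsb2 are known from are given beside them. Of 14 blood leukocyte markers on the array 4 were tested, and their summed log2 level ran from 21.0 to 23.0 over the rats. Besides Map4k1 these were S100a8, a neutrophil protein, at 0.058 ± 0.067, Cd3e, of the T cell receptor complex, at 0.050 ± 0.057 and Coro1a at -0.025 ± 0.068. Of 11 mast cell markers 3 were tested, with summed levels of 14.9 to 16.1, and beside Tpsb2 the granule genes Srgn and Mcpt4 had -0.057 ± 0.069 and -0.054 ± 0.066. The other 10 and 8 markers were below the mean filter at log2 3.22, and whether the tested ones were detected above background was not tested. Rat 1 was the highest for S100a8 and Cd3e, at 4.20 and 5.20, while rat 8 had 3.97 and 4.97, near the medians of 3.97 and 4.93. The part of such cells in the Map4k1 and Tpsb2 values was not tested.

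Acer3, a ceramidase that releases sphingosine, had 4.23, 5.10, 4.82, 5.04, 5.06, 4.72, 5.04, 5.07 and 5.60 in order of locomotion, so rats 3 and 1 were the ends and the other 7 lay between 4.72 and 5.10. Its slope of 0.29 ± 0.079 was 0.036 without those rats. Hltf, a helicase-like chromatin factor, had 4.90, 5.14, 5.14, 5.26, 5.43, 5.09, 5.35, 5.70 and 5.45. Rat 8 was the highest at 5.70, and rat 9, in the middle of the range, lay below its neighbours at 5.09. Its slope was 0.19 ± 0.055 with all rats, 0.15 without rat 8 and 0.28 without rats 1 and 3. Bmt2, a sensor of S-adenosylmethionine, had 6.78, 7.27, 6.88, 7.12, 7.30, 7.21, 7.38, 7.21 and 7.51. Its slope went from 0.18 ± 0.054 to 0.11 without rats 1 and 3. In ceramide metabolism 7 of 11 genes had positive slopes, where 2655 of all 6793 genes did. Acer3, named for its small p, was the 1 with an unadjusted p under 0.05. Among all genes 0.545% were positive with such a p.

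Pi4kb, a phosphatidylinositol 4-kinase of the Golgi, was lowest in rat 3 at 6.36 and 6.76 to 7.24 in the others, with a slope of 0.20 ± 0.067 and of 0.26 without rats 1 and 3. Its second tested probe set had 0.025 ± 0.086. Pxk, a kinase-like phosphoinositide-binding protein, was 5.50 in rat 1 and 4.61 to 5.03 elsewhere, and Pgap6, an enzyme that acts on lipid-anchored proteins, was 4.18 in rat 1 and 3.69 to 3.87 elsewhere. Without rat 1 their slopes went from 0.18 to 0.053 and from 0.12 to 0.041. Trappc8, of the TRAPP vesicle tethering complex, had 0.14 ± 0.047 and 0.022 without rats 1 and 3. Named for its small p, it was the 1 of 12 TRAPP genes with an unadjusted p under 0.05. Among all genes 0.545% were positive with such a p. Of the 12 slopes 8 were negative, where 60.9% of all genes were.

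The remaining positive genes were Cbx5, the heterochromatin protein HP1 alpha, at 0.23 ± 0.078, Dmac2, an assembly factor of respiratory complex I, at 0.22 ± 0.075 and Rhno1, of the DNA damage checkpoint, at 0.19 ± 0.066. Mrpl10, a mitochondrial ribosomal protein, had 0.22 ± 0.079 and Tmem248 0.26 ± 0.095. Rat 3 was the lowest rat for Dmac2, Rhno1, Mrpl10 and Tmem248, at 5.17, 4.35, 5.60 and 5.92. Leaving out rat 3 alone gave these genes 0.098, 0.099, 0.12 and 0.16, and leaving out rats 1 and 3 gave 0.15, 0.049, 0.14 and 0.28. Cbx5 was instead lowest in rat 7 at 6.88 and highest in rat 8 at 7.97, and its slope was 0.43 without rats 1 and 3. A second tested Dmac2 probe set had -0.046 ± 0.094.

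Across the 30 genes the sign of the slope was the same without rats 8 and 9, without rats 1 and 3 and without rat 1, although the size often was not. The genes were named for their slope in these same 9 rats, so the kept signs are no separate support. Rat 1 held the lowest value of 10 of the 15 genes with a negative slope and the highest of 8 of the 15 with a positive one. Rat 3 held the highest of 9 negative and the lowest of 9 positive genes. In 15 of the 30 genes at least 2 arrays shared an identical value, as did 47.0% of all probe sets tested. Without rats 1 and 3, r ran from -0.927 for 4930522L14Rikl to -0.0573 for Kif1c among the negative genes and from 0.140 for Trappc8 to 0.867 for Pi4kb among the positive ones.

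**Figure D2:**
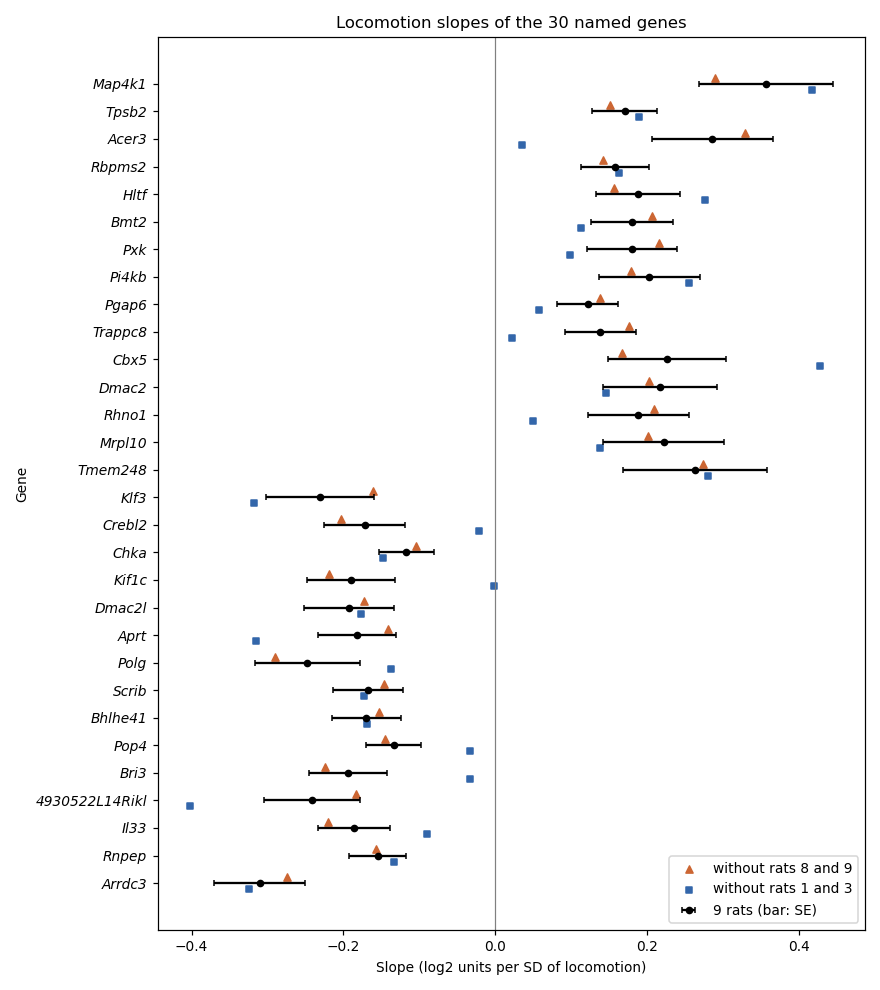
Slopes in log2 units per SD of locomotion (x axis) for the 15 positive and 15 negative genes (y axis). Black points with SE bars are the 9 rats, triangles leave out rats 8 and 9, and squares leave out rats 1 and 3; Kif1c, Crebl2, Acer3 and Trappc8 come close to 0 in the squares, at -0.0020, -0.022, 0.036 and 0.022, while Arrdc3 has -0.32.

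The 13 immediate early genes tested had a median slope of -0.14 beside -0.013 over all genes. These genes are transcribed within minutes of synaptic activity. Of the 13, 9 had negative slopes, where 60.9% of all genes did, and 2 an unadjusted limma p under 0.05, both negative, against 1.37% of all genes. Over all 20 probe sets of these genes the median was -0.028. On that basis oligodendrocyte precursor, endothelial and microglial markers lay lower, at -0.12, -0.099 and -0.097. So did the mitochondrial DNA, mast cell, interleukin, ependyma and ribonuclease P lists, at -0.072, -0.054, -0.049, -0.047 and -0.036. The lists were written with earlier results of these data known, and 0 of the 13 genes passed the adjusted threshold.

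Dusp1, a phosphatase that shuts off MAP kinases after stimulation, had 7.01 in rat 1, a median of 7.65 and 8.33 in rat 7. Rat 1 was the lowest and rat 8 next at 7.42, but rat 7, with low locomotion, and rat 9, in the middle, were the highest at 8.33 and 7.94. The slope was -0.25 ± 0.087, -0.16 without rat 1 and -0.27 without rats 8 and 9. Jun, a subunit of the AP-1 factor, had 7.87 in rat 2, a median of 8.09 and 8.48 in rat 7, with rats 3, 6 and 7 above the others. Its slope of -0.14 ± 0.053 was -0.18 without rat 1 and -0.15 without rats 8 and 9.

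Arc, an effector of synaptic plasticity, had 7.97 in rat 1, a median of 9.12 and 9.98 in rat 7, and a slope of -0.34 ± 0.19. Fos, the partner of Jun, had -0.34 ± 0.21 with 6.75 in rat 2, a median of 7.44 and 9.10 in rat 7. Rats 7 and 9 were the 2 highest for Fos, Junb, Egr1, Egr2, Arc and Nr4a1, although their locomotion values were 635 and 793. Egr1, a zinc finger factor, had 0.081 ± 0.13 and Homer1, a postsynaptic scaffold, 0.17 ± 0.19. Without rats 8 and 9, 11 of the 13 slopes were negative and 5 had an unadjusted p under 0.05, where 51.8% of all genes were negative and 178 of 6793 were negative with such a p. Without rat 1, 8 were negative, 0 had such a p and the median was -0.048, and without rat 7 the median was -0.033 with 9 negative. Without rats 1 and 3 it was -0.069, with 0 at such a p. All genes had medians of -0.030, -0.017 and -0.030 in these fits, with 63.0%, 62.8% and 64.0% negative. Of all 6793 genes 428 were negative with such a p without rat 1, and 647 without rats 1 and 3. With a term for rats 8 and 9 added, all 13 slopes were negative both without rat 1, at a median of -0.30 with 2 at such a p, and without rats 1 and 3, at -0.44 with 6. Over all 6793 genes those fits with the term had 46.3% and 45.3% negative slopes, and 90 and 68 negative genes with such a p. The size of the list median thus moved with the rats kept, and no gene of it passed the adjusted threshold with all 9.

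**Figure D3:**
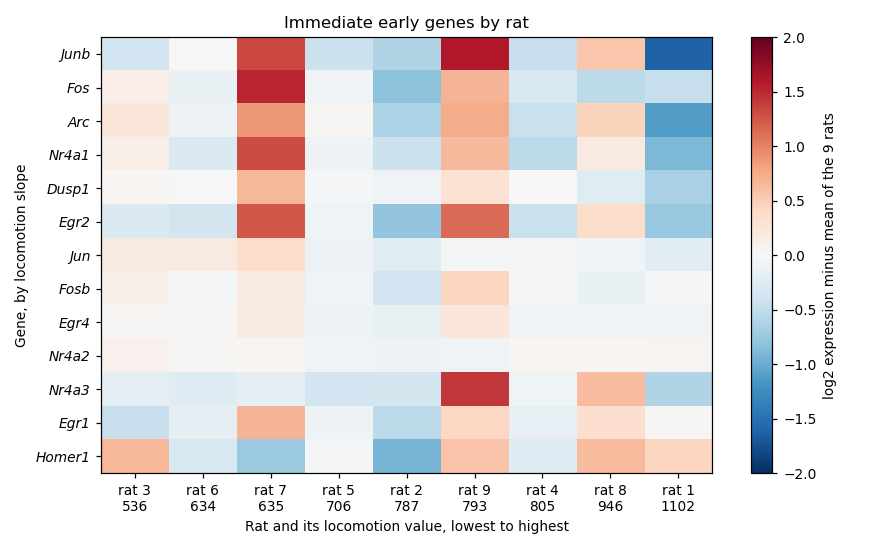
Log2 expression minus the mean of the 9 rats (colour, red high and blue low) of 13 immediate early genes (rows, by slope) in the 9 rats in order of locomotion (columns). Rats 7 and 9 are high for Fos, Arc and Junb (9.10 and 8.25 for Fos), and rat 1 is low for Junb and Arc, at 4.32 and 7.97.

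Markers of microglia and endothelium had mostly negative slopes, and none passed the adjusted threshold. All 8 microglial markers tested were negative, with a median of -0.097, where 60.9% of all genes were negative with a median of -0.013, and 0 had an unadjusted p under 0.05. Tyrobp, a signalling adaptor of these cells, was 5.02 in rat 3 and 4.44 to 4.52 in the other 8, and Csf1r, the growth factor receptor they depend on, was 8.34 in rat 3 and 7.45 to 8.07 elsewhere. Without rat 3 the list median was -0.022 and 6 of 8 slopes were negative, and without rats 1 and 3 it was -0.0068 with 5. Over all genes the medians in these fits were -0.012 and -0.030, with 57.8% and 64.0% of slopes negative. In bulk tissue fewer cells of a type and less RNA per cell cannot be told apart.

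Of 8 endothelial markers 6 (75.0%) had negative slopes beside the 60.9% of all genes, with a median of -0.079. Abcb1a, the drug efflux pump of the blood-brain barrier, had -0.25 ± 0.094 and was the 1 with an unadjusted p under 0.05, ranging from 5.48 in rat 9 to 6.79 in rat 3. Cldn5, the tight junction claudin, had -0.11 ± 0.059 with 9.68 in rat 3 and 9.07 to 9.43 in the others. Without rat 3 the median was -0.021 and 5 slopes were negative, and without rats 1 and 3 it was -0.028 with 5. All genes had medians of -0.012 and -0.030 in those fits, with 57.8% and 64.0% of slopes negative. Abcb1a no longer had an unadjusted p under 0.05 there. Rat 3 held the highest value of Tyrobp, Csf1r, Abcb1a and Cldn5.

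With all 9 rats, no tested gene of the transmitter systems known to drive movement had an unadjusted p under 0.05. The 6 dopamine genes tested had slopes from -0.14 for Maob, which degrades dopamine, to 0.27 for Pde10a, a phosphodiesterase, and 0 had an unadjusted p under 0.05. Pde10a was 9.44 and 9.29 in rats 8 and 9 and 6.89 to 8.23 in the others, and without those rats its slope was 0.0010. Of 13 glutamate receptors 6 had positive slopes, where 2655 of all 6793 genes did, and 0 had such a p. Gria1, an AMPA receptor subunit that stood out in rats 8 and 9, went from 0.32 ± 0.33 to 0.014 without them. Of 11 genes for GABA receptors, synthesis and transport 8 were negative, where 60.9% of all genes were. Gad2, which makes GABA, went from 0.39 ± 0.29 to 0.075 in the same way. In the lists for serotonin, noradrenaline and acetylcholine, opioids and cannabinoids, and neurotrophins, 0 of the 5, 4, 4 and 8 genes tested had an unadjusted p under 0.05 and the medians lay between -0.010 and 0.018. Leaving out rat 1 moved several of these values the other way. Without it Gria1 had 0.94, Gad2 0.94, Gabra4, a GABA receptor subunit, 0.36, Grik2, a kainate receptor subunit, -0.26 and Atf1, a CREB relative, -0.57, each with an unadjusted limma p under 0.05, where 242 positive and 428 negative of all 6793 genes had one. The mean filter had removed 9, 10 and 15 genes of the dopamine, serotonin, and noradrenaline and acetylcholine lists, so most receptors of these amines were not tested.

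Among 71 subunits of the respiratory chain and ATP synthase 49 (69.0%) had negative slopes, with a median of -0.020, near the 60.9% and -0.013 of all genes, and 0 had an unadjusted p under 0.05. With a term for rats 8 and 9 the median was 0.0016 and 33 were negative, and without rat 1 it was -0.053 with 8 negative slopes at such a p, where 428 of all 6793 genes were negative with one. Without rats 1 and 3 it was -0.062, with 11 negative where all genes had 647. Uqcrc1, of complex III, had -0.0825 ± 0.038 and ran from 10.5 in rat 1 to 10.9 in rat 3. Of 13 corticosteroid receptors and target genes 6 were negative, and 0 had such a p. Neuron, astrocyte and oligodendrocyte markers had medians of 0.011, -0.0079 and 0.034.

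**Figure D4:**
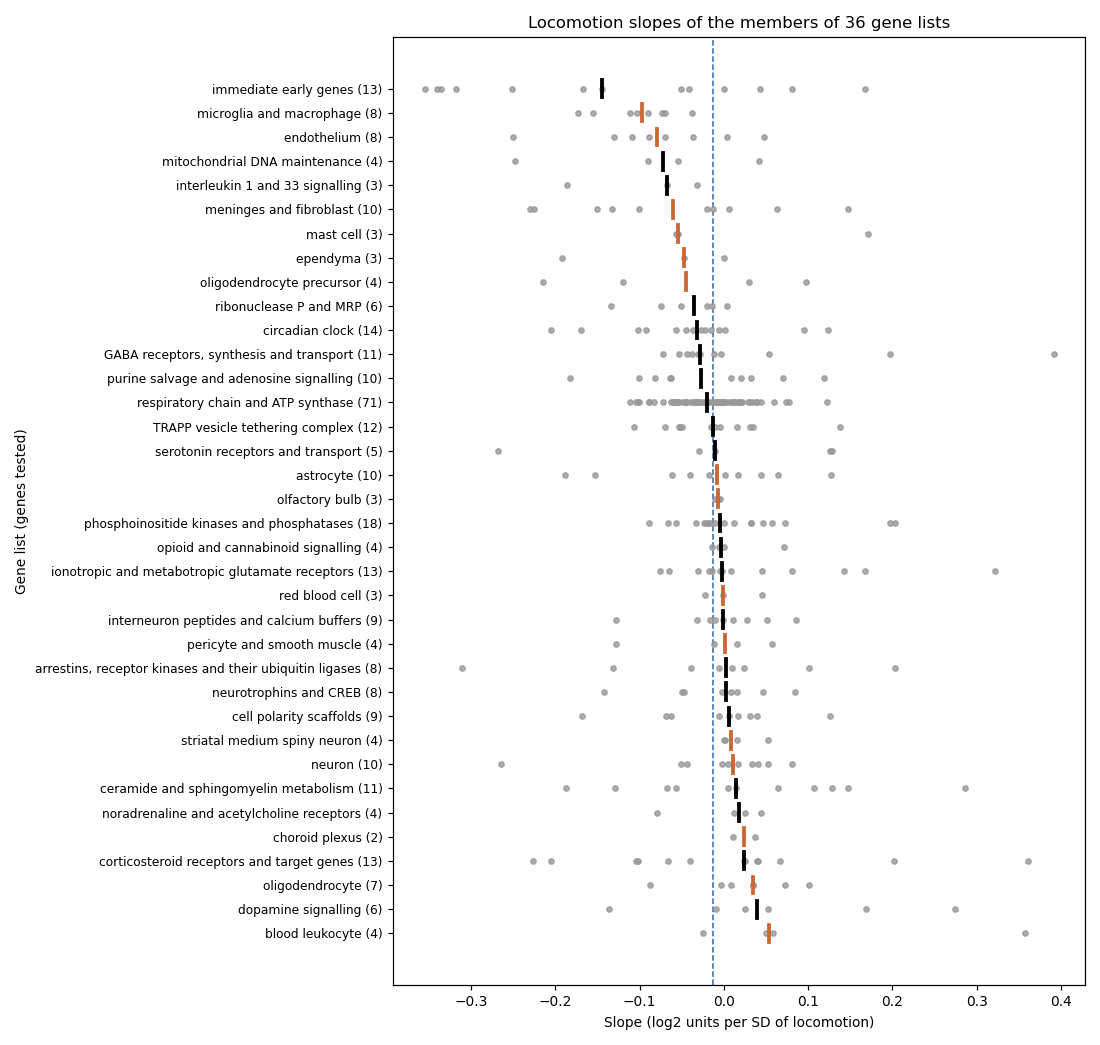
Slopes in log2 units per SD of locomotion (x axis) of the members (grey points) of 36 gene lists (y axis, with the number of genes tested). Bars are list medians, black for pathways and orange for cell types, and the dashed line is the median of all genes, -0.013; immediate early genes lie lowest at -0.14 and blood leukocyte markers highest at 0.054.

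The relation with locomotion was set against those with startle, plus maze and sugar feeding, measured on the same 9 rats, in fits that held locomotion and 1 other measure. In limma 0 of 9520 probe sets had a difference of slopes at an adjusted p of 0.05 for any of the 3 measures. At an unadjusted p under 0.05, the background was 10.6% of genes for locomotion against startle, 2.83% against the plus maze and 1.8% against sugar feeding. The standard error of the difference was 0.0824, 0.0986 and 0.131 at the median, so the comparison with sugar feeding was the least precise. Between locomotion and sugar feeding rho was 0.767, whose exact p was 0.0214 and, adjusted for 3 such comparisons, 0.0642, which missed the threshold. The corresponding r was 0.483, with an exact p of 0.187 and an adjusted p of 0.562, and it was 0.702 without rats 1 and 3.

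Slopes of the named genes on each other measure came from a fit of that measure alone. They are given as a description, since the genes were taken for their locomotion slope. Arrdc3 had -0.31 per SD of locomotion, 0.12 of startle, -0.063 of the plus maze and -0.11 of sugar feeding. Bhlhe41 had -0.17, 0.039, 0.059 and -0.063 in the same order, and Map4k1 0.36, -0.072, 0.0074 and 0.15. The sign on sugar feeding was that on locomotion for 29 of the 30 genes, Crebl2 being the exception. On the plus maze it was so for 25 and on startle for 10. Locomotion itself had r = 0.483, 0.127 and -0.0916 with these measures over the rats. The same share over all genes was not computed. With sugar feeding in the fit Arrdc3 had -0.34 and Map4k1 0.37 per SD of locomotion.

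Rat 1, the most active, carried much weight. Without it 171 probe sets had an unadjusted p under 0.01 in limma, 64 positive and 107 negative, but 0 passed an adjusted p of 0.05 and the lowest was 0.346. Of the 27 probe sets at that threshold with all rats, 4 were among them. In those 8 rats the r of locomotion with startle was -0.717 (exact p = 0.0436) and with the first principal component 0.60 (exact p = 0.156), where over the 9 rats r was -0.0916 and 0.256. Without rats 1 and 3 the r with startle was -0.495. Adding a term for rats 8 and 9 left 74 probe sets, 58 positive and 16 negative, of which 2 were among the 27. Without rats 1 and 3 the count was 195. With that term added it was 37, 28 positive and 9 negative, of which 1 was among the 27.

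**Figure D5:**
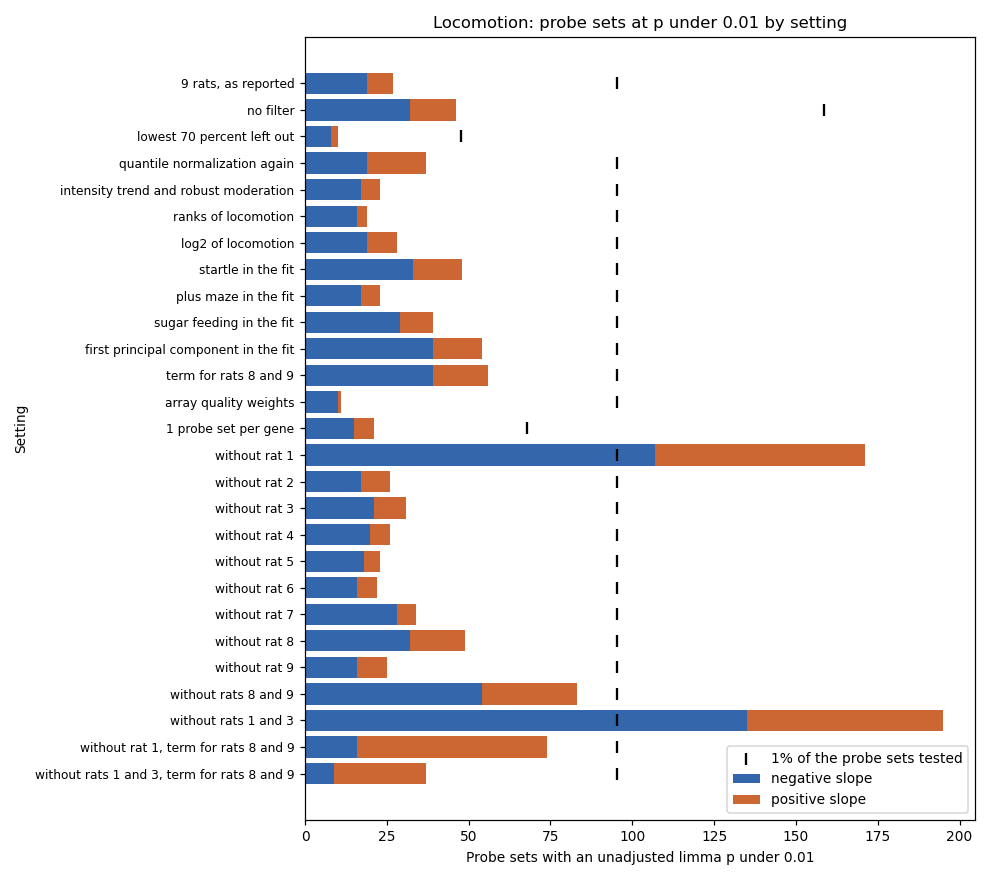
Number of probe sets with an unadjusted limma p under 0.01 (x axis) for the relation with locomotion under each setting (y axis), split into negative (blue) and positive (orange) slopes. Black ticks mark 1% of the probe sets tested; the 9 rats give 27 beside a tick at 95.2, and the settings without rat 1 (171) and without rats 1 and 3 (195) exceed it.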

How the data were processed

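The authors deposited 1 log2 value for each probe set on each of 9 arrays. The submitters' processing notes name GCRMA and R 2.6.2. This method adjusts for background with probe base content and for differences between arrays, and it can leave low probe sets at identical values. Identical values were not confined to low probe sets here, as Rnpep had 8.64 in rats 2, 4 and 5. No settings are named in the labels. Of 15923 probe sets, 57 controls were left out, then the lowest 40% of the other 15866 by mean (log2 under 3.22), which kept 9520. Gene names came from the platform annotation; 7862 tested probe sets had 1 symbol, covering 6793 genes, each represented by the probe set with the highest mean. No genome build is named for the table, so genes carry no coordinates except the RefSeq promoters.

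Slopes on locomotion, in units of its SD, were estimated by lmFit and eBayes of limma 3.58.1 (R 4.3.3), 7 residual degrees of freedom, two-sided, with Benjamini-Hochberg adjustment over all probe sets at 0.05. Correlations used two-sided exact permutation tests, enumerating 362880 pairings (5040 for 7 rats) with numpy 2.4.6 and scipy 1.17.1 in Python 3.11.15. p-values measure the spread between animals with 1 array each. Its script was first tested on simulated data. Named genes are the 15 per direction of smallest limma p, symbols beginning with LOC, RGD, MGC or AABR not eligible, plus up to 4 members by p of a list described and further members chosen after their values were seen. The 36 lists, and the comparison itself, were chosen with earlier results of these data known, and lists were not tested as sets. Alternatives were another filter, quantile normalization, moderation, scale of locomotion, covariates, array weights, 1 probe set per gene and rats left out. The combinations of a term for rats 8 and 9 with leaving out rat 1, or rats 1 and 3, were added after seeing the data.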

Additional observations from a re-analysis of the deposited data

Results flagged for a closer look

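In 49 sets of 9 values (the 30 named genes, the immediate early genes, the array measures and locomotion) 6 had an end value farther from its neighbour than Dixon's 95% limit of 0.493 of the range, where chance gives about 1 in 20. Rat 1 was the high rat for Pxk, with a gap of 0.528 of the range, and for Pgap6, with 0.628. It was the low rat for Il33, with 0.591. Rat 3 was the low rat for Dmac2, with 0.650, and the high rat for Kif1c, with 0.582. For the hexokinase 3′ minus 5′ difference rat 9 was low, at 1.14 log2 units against 2.02 in rat 8, with a gap of 0.496. Rats 1 and 3 are the ends of the locomotion range, and genes were named for their slope along it.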

How the results depend on the processing

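Under every alternative run, 0 probe sets passed an adjusted p of 0.05, for the locomotion slope and for its difference from the slopes on startle, plus maze and sugar feeding. The count of 27 probe sets at an unadjusted limma p under 0.01 became 46 with no filter, 10 with the lowest 70% left out, 48 with startle in the fit, 54 with the first principal component, 56 with a term for rats 8 and 9 and 11 with array weights. It was 83 without rats 8 and 9, 195 without rats 1 and 3, and 74 without rat 1 and with a term for rats 8 and 9. Leaving out each rat in turn gave 22 to 171, the highest without rat 1 and the next, 49, without rat 8. The other 15 alternatives stayed within 1.5 times of 27. Quantile normalization gave 37 probe sets, 18 positive and 19 negative, beside 8 and 19, so the share of negative slopes depends on that step. Of the 30 named genes, 23 kept their sign under every alternative, which is no separate support since they were named from the same rats. Without rat 1 and with a term for rats 8 and 9, Pxk had -0.0099 and Pgap6 -0.017. Without rats 1 and 3 and with that term, Pgap6 had -0.016, Bri3 0.0066, Pop4 0.0017, Polg 0.00075, Kif1c 0.0012 and Crebl2 0.028. The cause was not tested. The number of arrays, 9, limits the precision.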
